A study of Arabidopsis thaliana with 9 samples.

Results

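Transcript levels were compared between Arabidopsis thaliana seedlings of line 25, which expresses the rice gene OsRLCK253, and untransformed wild type seedlings. The comparison uses 6 of the 9 Affymetrix arrays of the study, chosen by their labels: 3 of the OsRLCK253 line and 3 of wild type. The other 3 arrays come from line 22, which expresses the rice gene OsSAP11 and serves here as a second transgenic line. All seedlings were 21 days old, carried the ecotype label col 1, were grown on diluted MS medium with no antibiotic selection and received no stress treatment. The replicates are labelled biological, and RNA of the seedlings was labelled with biotin. Each rice gene is represented by 1 line, so an effect of the transgene and an effect of that line cannot be told apart. The transgene itself was not analysed here, because the array carries Arabidopsis probe sets.

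Receptor-like cytoplasmic kinases are protein kinases that lack the outer domain of a receptor and pass on signals from receptors at the cell membrane. In Arabidopsis, members such as BIK1 act in immune signalling. OsSAP11 encodes a stress-associated protein with A20 and AN1 zinc fingers. Many transcripts of seedling leaves also follow light, the circadian clock, sugar supply and mechanical stimulation. Cold-regulated genes, genes repressed by sugar and genes induced within minutes of touch or wounding are well known groups of this kind, and they are described below beside flavonoid, photosynthesis and starch genes.

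Each array gave 1 signal per probe set on a linear scale. Of the 22746 probe sets tested, 13513 name exactly 1 gene, and results for single genes come from these. The arrays were alike in level, with a median signal from 42.9 to 46.1 in the line and from 43.8 to 45.5 in wild type, and 39.8% to 40.3% of probe sets on an array lay under a signal of 16, near the background. Correlations across probe sets, which are not replicates, were 0.9932 to 0.9939 within the line, 0.9951 to 0.9960 within wild type and 0.9725 to 0.9796 between them. All 18 probe sets of the hybridisation spike-ins, which repeat a few added transcripts, were lower in the line, by a median log2 difference of -0.17, and the 3' to 5' ratio of 3 of 6 control pairs was higher on every array of the line than on every wild type array. The part of these shifts in the results below was not tested. Green tissue was present in both groups, since the 10 measured photosynthesis genes summed to signals of 148862 to 152790 in the line and 117880 to 122372 in wild type. The 3 measured root markers summed to 6548 to 9143 in the line and 6152 to 7818 in wild type, most of it PYK10, and no flower, seed or xylem marker of the lists was measured by a probe set that names it alone. In bulk seedling RNA, fewer cells of a type and less RNA per cell cannot be told apart.

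Signals were compared as log2(signal + 16), and the differences, rises and falls of genes below are given on that scale, as the line minus wild type unless the OsSAP11 line is named. A probe set was called when its adjusted p was under 0.05 in limma after Benjamini-Hochberg adjustment over all probe sets tested. By this rule 3138 probe sets (13.8%) differed, of which 1581 (6.95%) were higher and 1557 (6.85%) lower in the line. The directions were balanced in number and unbalanced in size. At least 2-fold differences were found for 290 probe sets higher and 474 lower, at least 4-fold differences for 53 higher and 131 lower, and at least 8-fold differences for 10 higher and 33 lower. The median difference was 0.55 among those called higher and -0.67 among those called lower, against 0.014 over all probe sets. Without wild type replicate 1 the count of calls was 2040. Among probe sets that name 1 gene, 713 rose and 821 fell.

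**Figure D1:**
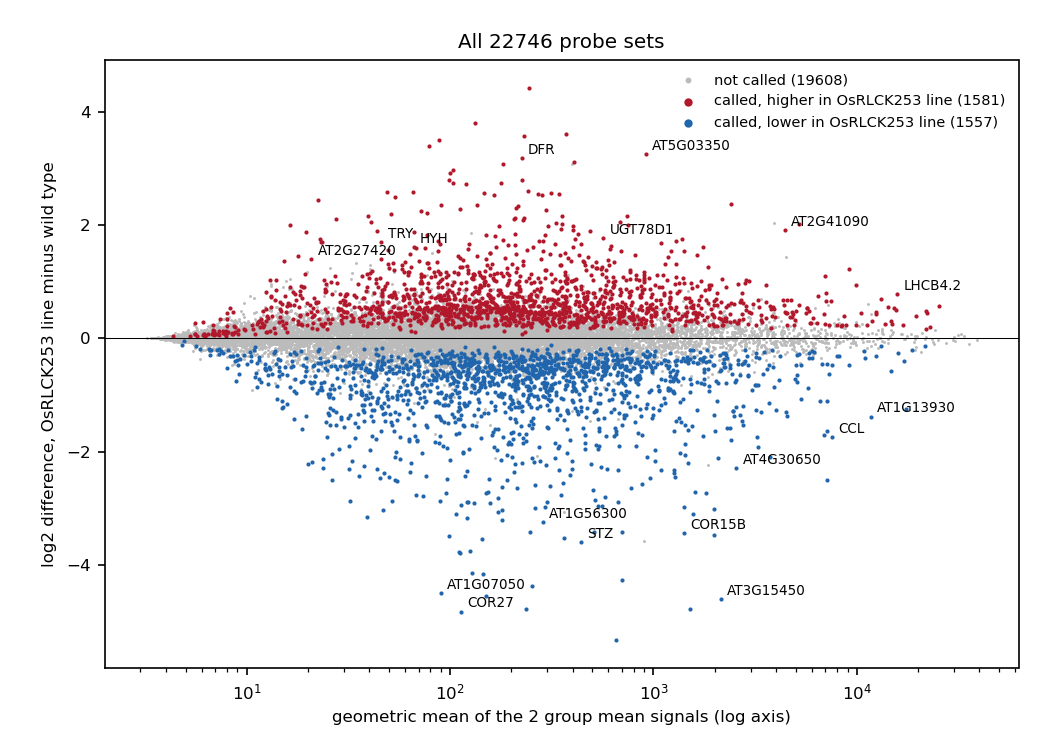
Log2 difference, line minus wild type (vertical axis), against the geometric mean of the group mean signals (horizontal log axis) for all 22746 probe sets. Red points are the 1581 called higher in the line, blue points the 1557 called lower and grey points those not called, and the falls reach further from 0 than the rises.

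The arrays of the groups failed to overlap for 10553 probe sets (46.4%), 7733 higher (34%) and 2820 lower (12.4%) in the line. Most of the excess of higher ones was in dim probe sets. Of 8788 probe sets with a mean signal under 16 in both groups, 4648 lay wholly higher and 117 wholly lower in the line, with a median difference of 0.014, and 64 were called higher and 31 lower. Among the other 13958 probe sets, 3085 lay wholly higher and 2703 wholly lower. For this reason the largest rises and falls were ranked only among probe sets that name 1 gene, were called, had groups that do not overlap and reached, in the group where they were higher, a mean signal above 44.6, the median over all probe sets. Since the rule requires groups that do not overlap, their separation is no finding about a ranked gene. The rule left 1344 probe sets, 612 higher and 732 lower. Members of the gene lists described further below did not have to meet it, and some of them are dim, overlap or were not called. The 50 largest differences in each direction reached down to 1.35 for the rises and -2.18 for the falls.

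The largest falls included genes of cold response and of the circadian clock. COR27 (AT5G42900), a cold-regulated gene that also acts in the clock, had signals of 21.4, 11.6 and 12.2 in the line, against 951, 749.6 and 872 in wild type. Its close relative AT4G33980, known as COR28, had 20.0, 31.2 and 19.4 in the line and 506, 552 and 530.5 in wild type. The groups were far apart for both genes, with log2 differences of -4.82 and -3.80, and COR27 was near the background on 2 of the 3 arrays of the line, so that the size of its change depends on the 16 added. AT1G07050, which encodes a protein with the CCT motif found in clock and flowering regulators, had 15, 16.3 and 7.30 in the line, against 656, 564 and 681 in wild type. AT4G30650, annotated as a low temperature and salt responsive membrane protein gene, was the brightest of ranks 13 to 50, with signals of 1264, 1230.3 and 955 in the line and 5988, 5418 and 5606 in wild type. Its log2 difference was -2.30 (SE 0.12, adjusted p = 0.00015). GI (AT1G22770), which encodes a large clock protein that also promotes flowering, fell less, with 121, 118 and 139 in the line and 435, 436 and 448 in wild type, a difference of -1.69 (SE 0.15, adjusted p = 0.00087).

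The falls also included a gene repressed by sugar, genes of a family of unknown function, a protease gene and a lipase gene. AT3G15450, a gene repressed by sugar, had signals of 449.9, 358 and 478 in the line and 11303, 10642 and 10224 in wild type. AT2G20670, one of 3 genes of a family with a plant-specific domain of unknown function among the 50 falls, had 311, 204 and 408 in the line, against 2038, 2059 and 1749 in wild type, and fell by 2.65 (SE 0.26). Its relatives AT3G07350 and AT2G39650 had differences of -2.22 and -2.21. AT2G39650 averaged 25.6 in the line and 162 in wild type. The aspartyl protease gene AT5G19120 had 767, 424 and 678 in the line, against 4312, 3931 and 3964 in wild type, and fell by 2.72 (SE 0.25, adjusted p = 0.00094). AT1G02660, which encodes a lipase of the plastid, had 11.2, 10.2 and 10.8 in the line, under 16 on every array, against 213, 207 and 187 in wild type.

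The 50 falls also held genes of transcription regulators and zinc-finger proteins. AT1G76590 and AT5G46710 encode PLATZ zinc-finger proteins, which bind A/T-rich DNA. AT1G76590 had 39.4, 31.2 and 33.1 in the line, against 442, 325 and 353 in wild type, and fell by 2.94 (SE 0.19, adjusted p = 0.00031), while AT5G46710 fell by 3.53. WRKY53 (AT4G23810), a transcription factor gene of senescence and defence, had 27.1, 6.09 and 8.84 in the line and 143, 114 and 178 in wild type. AT3G46600, of the GRAS family of regulators, had 177, 55.0 and 142 in the line and 827, 723 and 768 in wild type. Within the line, WRKY53 and AT3G46600 both had their lowest signal on the array of replicate 2. AT2G22880, whose product has the VQ motif known from partners of WRKY proteins, lay at 6.14, 5.70 and 6.13 in the line, near the background, against 119, 82.3 and 77.7 in wild type. AT5G50450, with a MYND-type zinc finger, fell by 2.49 and averaged 34.8 in the line and 269.5 in wild type.

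Genes of calcium signalling, defence and stress were among the falls as well. AT1G72900, AT1G72940 and AT1G66090 encode proteins with a TIR domain, a domain of plant immune receptors. AT1G72900 had 150.3, 35.5 and 89.1 in the line, against 748, 682 and 827 in wild type, and fell by 2.99 (SE 0.44, adjusted p = 0.00621). AT1G72940 had 179, 41.6 and 71.1 in the line, against 449.5, 462 and 434 in wild type, and fell by 2.23. AT1G66090 fell by 2.50 and was under 16 on all 3 arrays of the line. CML38 (AT1G76650), a calmodulin-like gene induced by touch and wounding, had 91.5, 35.9 and 48.1 in the line and 707, 423 and 383 in wild type. Like the first pair of TIR genes, it had its highest signal in the line on replicate 1 and its lowest on replicate 2. TET8 (AT2G23810), a tetraspanin gene whose product marks plant extracellular vesicles, had 677, 408 and 578 in the line, against 3114, 2972 and 2576 in wild type, and fell by 2.37 (SE 0.19, adjusted p = 0.00063).

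Protein kinase and chaperone genes gave some of the tightest falls. AT3G59350 encodes a Pti1-like protein kinase, and its signals were 57.7, 55.4 and 39.4 in the line and 551, 465 and 427 in wild type, a difference of -2.90 (SE 0.13, adjusted p = 0.00011). AT1G56300, with the J domain of HSP70 partners, had 89.6, 91.9 and 77.5 in the line and 979, 950.2 and 918 in wild type, a difference of -3.24 (SE 0.13, adjusted p = 7.3e-05). AT4G16146, annotated as related to a cAMP-regulated phosphoprotein, had 184, 206 and 163 in the line and 1638, 1473 and 1481 in wild type. As for every ranked fall by rule, the highest line array lay below the lowest wild type array in these 3 genes. The glutaredoxin gene AT3G62950 lay at 6.96, 6.20 and 6.80 in the line, against 211, 115 and 139 in wild type. Differences were -2.78 for AT1G51090, with a heavy-metal-associated domain, -2.46 for AT4G32340, with tetratricopeptide repeats, -2.73 for the glycine-rich protein gene AT2G05540 and -2.18 for the serine hydrolase gene AT4G24380. Of the 50 falls, 12 had a mean signal under 16 in the line, and their sizes depend on the 16 added. No role is given here for the other ranked loci, such as AT1G05575, with 7.24, 7.47 and 8.67 in the line and 229, 161 and 201 in wild type, or AT3G10020, with 372, 312 and 375 in the line and 2035, 2653 and 1910.1 in wild type.

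**Figure D2:**
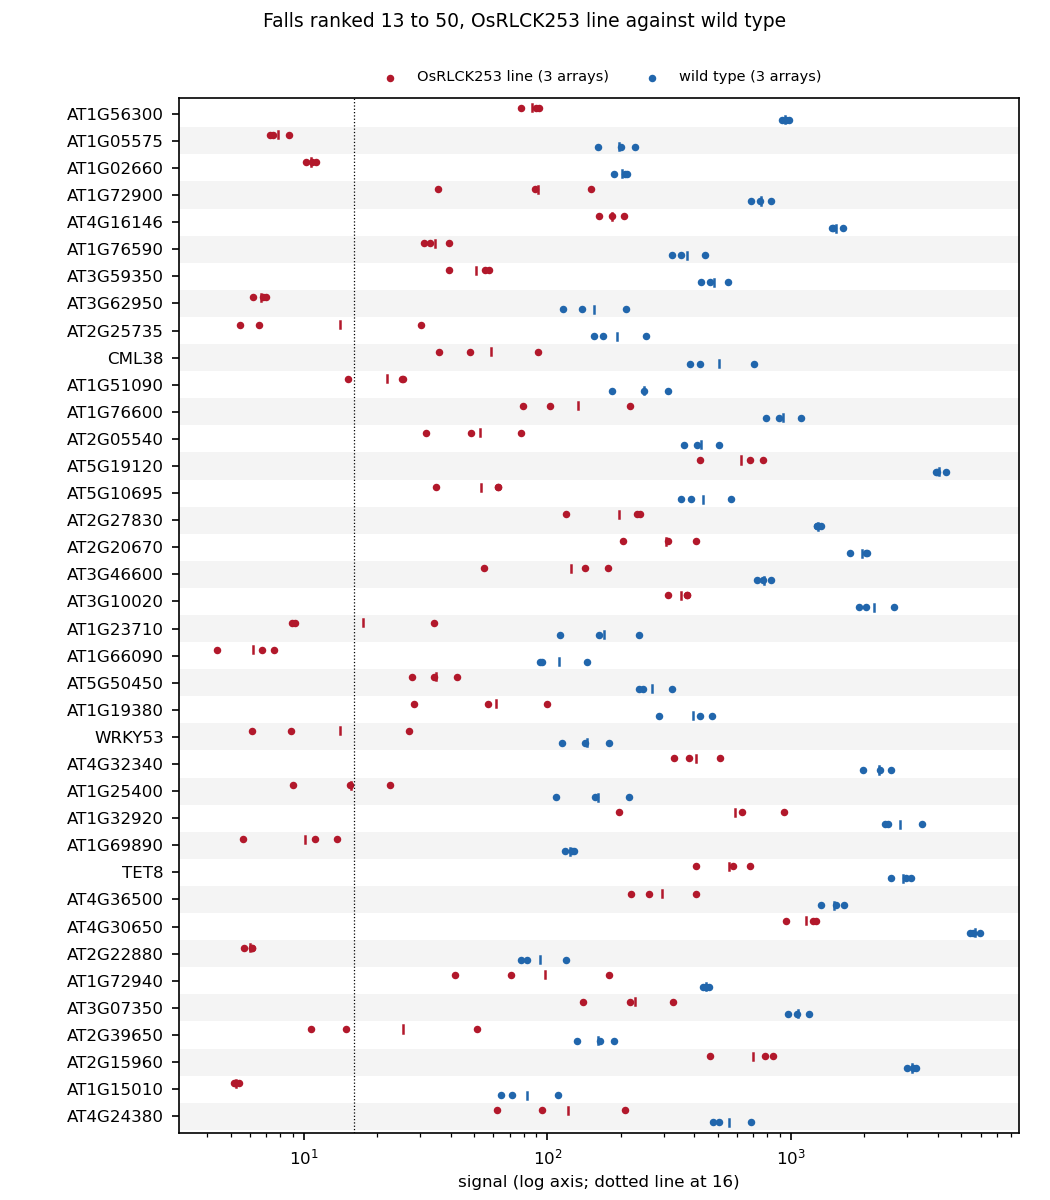
Signals on a log axis of the falls ranked 13 to 50, with 3 points per group and a bar at the mean, the OsRLCK253 line in red above wild type in blue and a dotted line at a signal of 16. The ranking rule requires the groups of each gene to be apart. The points of the line spread more widely than those of wild type in many genes, such as AT1G72900 and AT1G72940.

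The arrays of the line differed among themselves in these falls. Among the 50 falls, replicate 1 had the highest signal of the line in 34 and the lowest in 6, and replicate 2 had the highest in 5 and the lowest in 33. The median over these genes of the standard deviation of the log2 signal was 0.34 in the line and 0.22 in wild type. It was 0.26 in the line and 0.20 in wild type for the 50 rises, and 0.12 in the line and 0.11 in wild type for all called probe sets. STZ (AT1G27730), a zinc-finger repressor gene of stress responses, was an extreme case, with 320.1, 14.9 and 110.5 in the line and 1374, 1459.9 and 1100.1 in wild type. Its difference of -3.59 had an SE of 0.83 (adjusted p = 0.0331) and lost its call in 6 of the 9 leave-one-out fits. AT1G32920, with 938, 197 and 630.0 in the line and 3454, 2492 and 2423 in wild type, lost its call in 7 of them.

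Among the rises, genes of light signalling and flavonoid modification stood beside genes of cell walls and photosynthesis. HYH (AT3G17609), a bZIP transcription factor gene closely related to HY5, a promoter of light responses, had signals of 124, 123 and 152 in the line and 31.3, 33.5 and 33.6 in wild type, a difference of 1.61 (SE 0.11, adjusted p = 0.00043). AT3G44450, known as BIC2, encodes an inhibitor of the blue light receptors called cryptochromes, and had 471, 437 and 297 in the line and 49.3, 46.3 and 64.4 in wild type. AT1G18810, a phytochrome kinase substrate gene, had 84.9, 146 and 183 in the line and 26.1, 27.2 and 47.8 in wild type, a difference of 1.60 (SE 0.27, adjusted p = 0.0108). Of these 3 genes, AT1G18810 had the widest spread within the line. AT1G64500, of the glutaredoxin family, rose by 1.98, with 333, 361 and 413 in the line and 75.8, 97.8 and 72.5 in wild type.

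Among the rises were genes for enzymes that add sugars to flavonoids. UGT78D1 (AT1G30530), which puts rhamnose on flavonols, had 1033, 1074 and 1089 in the line and 303, 284 and 314 in wild type, a difference of 1.77 (SE 0.12, adjusted p = 0.00039). AT1G06000, a flavonol rhamnosyltransferase gene that acts at another position of the molecule, had 703, 693 and 519 in the line and 243, 249 and 193 in wild type. AT4G14090, the anthocyanin glucosyltransferase gene, had 345, 454 and 256 in the line and 30.2, 64.1 and 27.1 in wild type. The array of replicate 3 had the lowest signal of the line in AT1G06000 and AT4G14090.

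Some cell wall and cell surface genes were among the rises. EXLB1 (AT4G17030), an expansin-like gene, had 822, 922 and 722 in the line and 235, 232 and 189 in wild type. GH9B8 (AT2G32990), a gene of the endoglucanase family, which cuts cell wall glucans, had 231, 204 and 245 in the line and 54.2, 81.1 and 61.0 in wild type. Their differences were 1.84 and 1.59. AT1G69730, a wall-associated-kinase-like gene, had 261, 338 and 348 in the line and 25.3, 35.6 and 39.6 in wild type, a difference of 2.75 (SE 0.16). The leucine-rich repeat receptor kinase gene AT3G28040 rose by 1.37, with 624, 711 and 595 in the line and 232, 259 and 224 in wild type. Lectin genes were also among them. AT5G03350, a legume-lectin-like gene, varied within both groups, with 1246, 3522 and 3167 in the line and 149, 124 and 686 in wild type, and lost its call in 4 of the 9 fits with an array removed. JAL23 (AT2G39330), a jacalin-type lectin gene, had 317, 323 and 268 in the line and 95.7, 73.5 and 56.0 in wild type.

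Genes of metabolism and of calcium signalling were also among the 50 rises. AT5G15950 encodes an S-adenosylmethionine decarboxylase of polyamine synthesis, and had 600.1, 644 and 897 in the line and 175, 158 and 187 in wild type, a difference of 1.93 (SE 0.17). PPDK (AT4G15530), the gene of pyruvate orthophosphate dikinase, had 410.1, 456 and 549 in the line and 158, 183 and 162 in wild type. AT1G19450, a sugar transporter gene of the ERD6-like family, had 807, 809 and 775 in the line and 232, 333 and 293 in wild type. These 3 rose by between 1.4 and 1.93. The brightest of ranks 13 to 50 was AT2G41090, a calmodulin-like gene, with 7586, 9074 and 8439.9 in the line and 1483, 2091 and 3467 in wild type. Its spread was in wild type, where the highest array had over 2 times the signal of the lowest, and its difference was 1.91 (SE 0.31, adjusted p = 0.00856). Protease genes were AT5G45650, a subtilase that rose by 1.72, AT2G27420, a papain-type protease that rose by 1.41, and scpl46, a carboxypeptidase-like gene that rose by 1.51. AT5G35970, a helicase-like gene, rose by 2.05, AT1G55960, with a lipid-binding domain, by 2.02, AT2G41250, a hydrolase of the haloacid dehalogenase type, by 1.92, and AT5G13770, with pentatricopeptide repeats, by 1.35. AT3G01060, for which no role is given here, had the smallest error of the 50 rises, with 775, 852 and 832 in the line and 194, 197 and 196 in wild type, a difference of 1.98 (SE 0.06, adjusted p = 4e-05). Of the 50 rises, 5 had a mean signal under 16 in wild type, and their sizes depend on the 16 added.

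**Figure D3:**
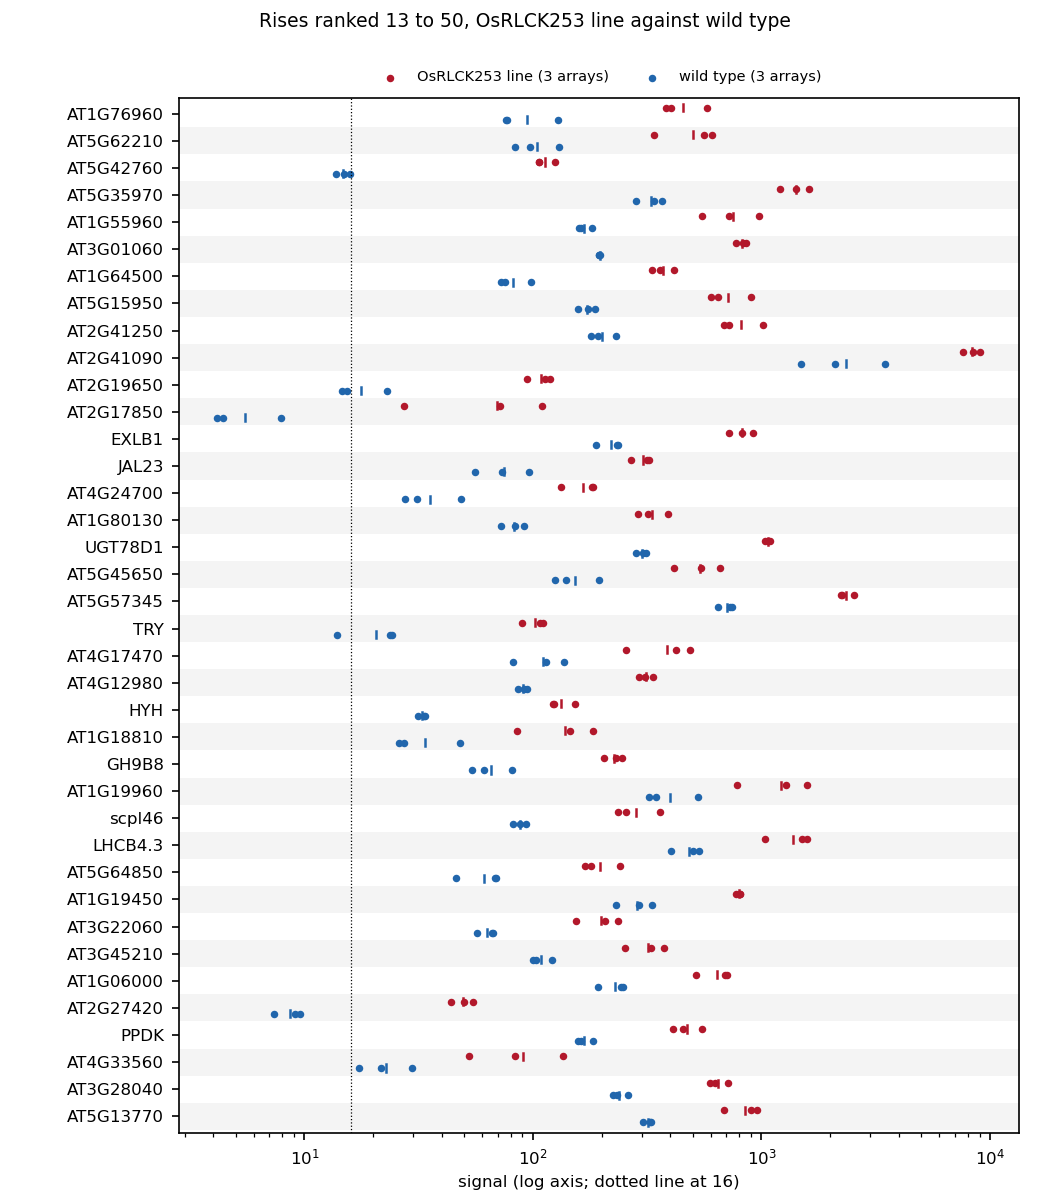
Signals on a log axis of the rises ranked 13 to 50, with 3 points per group and a bar at the mean, the OsRLCK253 line in red above wild type in blue and a dotted line at a signal of 16. The groups are apart in each gene, as the ranking rule requires. AT2G41090 lies far to the right of the others, between 7586 and 9074 in the line.

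Genes of known groups were also described by list, whatever their size of change. Of 707 genes in 31 lists, 125 had a probe set naming no other gene, so most members of most lists were not seen. Over all probe sets, 6.95% were called higher and 6.85% lower, and the counts of every list below stand beside these shares. The lists were chosen with earlier results of these data known, and some of their members are among the largest differences above. Their counts and medians are therefore a description and not a test. Of 7 measured cold and dehydration genes, 6 fell and none rose, against 6.85% of all probe sets called lower, and the median difference was -1.80, against 0.014 over all probe sets. The cold-induced chloroplast protein gene COR15A had 1480.4, 2193 and 1243 in the line and 4843, 3827 and 5325 in wild type, and its relative COR15B had 370.1, 565 and 337 in the line and 5015, 3789 and 5172 in wild type. COR15B had a difference of -3.43 and COR15A one of -1.53, and the call of COR15A was lost in 6 of the 9 leave-one-out fits. The dehydrin genes COR47 and LTI30 fell, with differences of -1.80 and -1.45. LEA4-5, a seed and drought protein gene, was under 16 on all 6 arrays. In the clock list of 4, which shares COR27 and AT4G33980 with the cold list, 3 fell and none rose, with a median of -2.74, and AT5G52660, a MYB-like clock gene, had a difference of -0.18 (adjusted p = 0.475).

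Of 8 measured genes of sugar starvation and darkness, 4 fell, against 6.85% of all probe sets called lower, and none rose, with a median of -0.72. AKINBETA1 (AT5G21170), a regulatory subunit gene of the energy-sensing kinase SnRK1, had 180.4, 185 and 249 in the line and 559, 379 and 416 in wild type. MCCA (AT1G03090), a gene of leucine breakdown, had 154, 179 and 179 in the line and 341, 311 and 269.9 in wild type, a difference of -0.79 (SE 0.11, adjusted p = 0.0044). Its partner subunit gene MCCB had -0.17 (adjusted p = 0.112) and IVD, of the same pathway, -0.44 (adjusted p = 0.0985), and neither passed. EXO (AT4G08950), an extracellular protein gene linked to brassinosteroid growth responses, fell by 1.95, with 318, 204 and 265 in the line and 1342, 1252 and 676 in wild type. HIS1-3, a linker histone gene, had -0.65 (adjusted p = 0.178).

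Sugar transport and starch genes changed in both directions. Of 9 measured, 4 rose, against 6.95% of all probe sets called higher, and 2 fell, with a median of 0.65. The starch breakdown genes DPE1, for a glucan transferase, and PWD, for a kinase that phosphorylates glucan, were the ones that fell. DPE1 (AT5G64860) had 201, 245 and 189 in the line and 483, 496 and 606 in wild type, and PWD had 594, 619 and 461 in the line and 1284, 1259.9 and 1458 in wild type. In both genes the lowest wild type array lay above the highest array of the line, with differences of -1.26 (SE 0.12, adjusted p = 0.0011) and -1.24 (SE 0.13, adjusted p = 0.00176). The sucrose exporter genes SWEET11 and SWEET13 rose by 0.65 and 1.16. SWEET13 had 180.2, 216 and 172 in the line and 58.0, 65 and 112 in wild type. SAG29, also a sugar transporter gene, rose by 2.19, with 82.8, 221 and 117 in the line and 7.65, 38.4 and 9.40 in wild type. APL3, for a subunit of the enzyme that starts starch synthesis, rose by 0.91. The calls of SAG29 and APL3 were lost in 2 and 4 of the 9 fits with an array removed.

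All 4 measured light signalling genes rose, against 6.95% of all probe sets called higher, with a median of 1.97. Besides HYH and AT3G44450 these were AFR (AT2G24540), which codes for an F-box protein that acts after phytochrome A, with 378, 544 and 643 in the line and 78.8, 119 and 71.4 in wild type, and AT3G52740, known as BIC1, another cryptochrome inhibitor. AT3G52740 rose least, by 0.75. Of 7 measured flavonoid and anthocyanin genes, 6 rose and none fell, with a median of 1.77. CHIL (AT5G05270), a helper of the early pathway, had 151, 127 and 118 in the line and 42.9, 58.7 and 38.0 in wild type, a difference of 1.25 (SE 0.21, adjusted p = 0.0101). UGT78D2 (AT5G17050), the glucosyltransferase gene for anthocyanins and flavonols, had 594, 536 and 563 in the line and 246, 299 and 268 in wild type. The acyltransferase gene AT5MAT, with 25.9, 47.6 and 11.8 in the line and 4.79, 7.33 and 6.25 in wild type, did not pass (adjusted p = 0.0947), although its groups did not overlap. DFR (AT5G42800), of the anthocyanin branch, had 805, 840.0 and 545 in the line and 50.6, 109 and 47.4 in wild type.

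Of 10 measured photosynthesis genes, 7 rose, against 6.95% of all probe sets called higher, and none fell, with a median of 0.30. LHCB4.3 (AT2G40100), a minor antenna protein gene, had the largest rise, with 1586, 1508 and 1034 in the line and 535, 403 and 502 in wild type, a difference of 1.47 (SE 0.21, adjusted p = 0.00551). Its relatives differed in size of change, since LHCB4.2 rose by 0.78 and LHCB4.1 had a difference of 0.10 (adjusted p = 0.0961). Photosystem subunit genes PSBY and PSAN rose by 0.44 and 0.23. The Calvin cycle genes SBPASE and PRK rose by 0.36 and 0.24, and RCA, for the activase of rubisco, by 0.48. The calls of SBPASE and PRK were lost in 2 and 4 of the 9 leave-one-out fits.

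**Figure D4:**
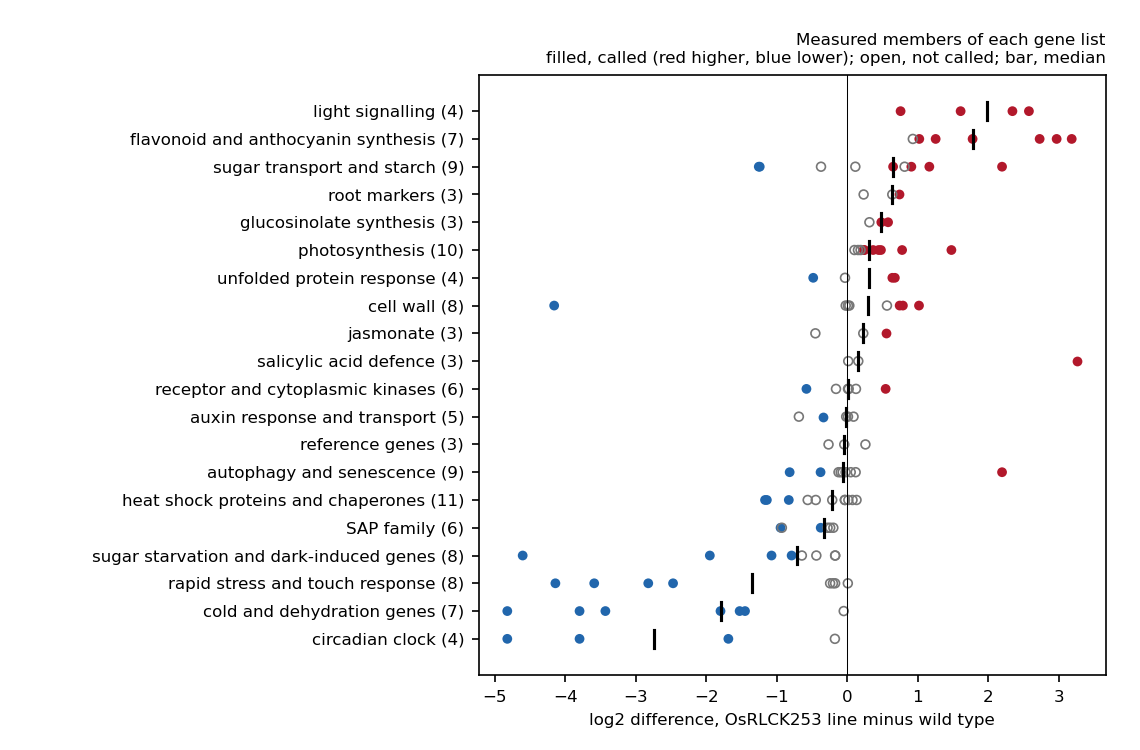
Log2 difference, line minus wild type (horizontal axis), of each measured gene in the 20 lists with at least 3 measured genes. Filled points are called genes, red higher and blue lower, open points were not called and black bars are list medians, from -2.74 for the clock list to 1.97 for light signalling.

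Of 8 measured rapid stress and touch genes, 4 fell, against 6.85% of all probe sets called lower, and none rose, with a median of -1.36. STZ, CML38, WRKY53 and AT4G29780 fell, and AT4G29780, a nuclease-like gene, had 46.0, 8.22 and 19.2 in the line and 712, 826 and 456 in wild type. The calmodulin-like gene CML37 and the ubiquitin ligase genes PUB22, PUB23 and PUB24 had differences from -0.24 to 0.01 and none passed. CML37 and PUB22 averaged under 16 in all groups, so they could hardly show a fall. The list median includes them, and the median without dim members is given in the last section. Among 11 measured genes for heat shock proteins and chaperones, 3 were called lower, against 6.85% of all probe sets, and 0 higher, with a median of -0.21. Of the 11, 4 averaged under 16 in all groups and could hardly show a fall. Of the 3 called lower, the small heat shock protein gene AT2G29500 and the immunophilin gene AT5G48570 lost their calls in 5 and 4 of the 9 leave-one-out fits. Fes1A (AT3G09350), for an exchange factor of HSP70, had 67.2, 56.3 and 49.2 in the line and 169, 143 and 135 in wild type. The HSP70 gene AT3G09440 had 2115, 1489 and 1689 in the line and 1538, 1722 and 1529 in wild type and did not pass (difference 0.13, adjusted p = 0.557).

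Of 6 measured receptor and cytoplasmic kinase genes, APK1A rose by 0.54 and BIK1 fell by 0.58. The list median of 0.014 was set by AT5G18610 and EFR, which averaged under 16 in all groups. BIK1, an immune kinase of the same class as OsRLCK253, had 175, 114 and 179.9 in the line and 229, 239.9 and 243 in wild type, and lost its call in 6 of the 9 leave-one-out fits. FER, a receptor kinase gene of growth, had -0.16 (adjusted p = 0.281) and THE1, of the same family, 0.12 (adjusted p = 0.346). The Arabidopsis SAP family has the zinc fingers found in OsSAP11. Of its 6 measured genes, 2 were called lower, against 6.85% of all probe sets, and 0 higher, with a median of -0.33. All 6 differences were negative, from -0.95 for AT2G36320 to -0.20 for AT2G27580. Of 8 cell wall genes, EXPA16 and XTH33 averaged under 16 in all groups, and the list median was 0.29. The pectin methylesterase inhibitor gene AT5G62360 fell by 4.16, and the expansin genes EXPA4, EXPA8 and EXPA15 rose by 1.02, 0.79 and 0.74. EXPA8 was the steadiest of these rises, with 1218, 1269 and 1414 in the line and 735, 714 and 789 in wild type, and the calls of EXPA4 and EXPA15 were lost in 7 and 4 of the 9 fits with an array removed.

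In the list of the unfolded protein response, the endoplasmic reticulum chaperone genes CRT1b and ATERDJ3B rose by 0.67 and 0.64, the transcription factor gene BZIP60 fell by 0.48 and BZIP28 had a difference of -0.03 (adjusted p = 0.759). The list median was 0.30. CRT1b (AT1G09210) had 1416, 1344 and 1313 in the line and 830.1, 879 and 828 in wild type, and BZIP60 had 286, 266 and 296 in the line and 435, 353 and 420.2 in wild type. The groups overlapped in neither gene, and these genes moved in opposite directions. Of 9 autophagy and senescence genes, SAG29 rose and the autophagy genes ATG8E and ATG8H fell, with differences of -0.82 and -0.38 and a list median of -0.068. The calls of ATG8E, ATG8H and SAG29 were lost in 4, 7 and 2 of the 9 leave-one-out fits. The other 5 measured genes of the ATG8 family had differences from -0.09 to 0.12 and did not pass.

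Hormone lists held few measured genes. HAT2, an auxin-induced homeobox gene, was the only one of 5 measured auxin genes that passed, and it fell by 0.35. Its call was lost in 7 of the 9 leave-one-out fits. The list median of -0.017 is the difference of IAA29, which averaged under 16 in all groups, as did GH3.1. JMT (AT1G19640), for the enzyme that methylates jasmonate, rose by 0.54 at a low level, with 16.9, 14.9 and 11.3 in the line and 5.54, 4.2 and 4.52 in wild type. PDF1.2, a defensin gene used as a jasmonate marker, varied from array to array, with 115, 13.7 and 55.0 in the line and 99.6, 30.4 and 116 in wild type. The other jasmonate gene, THI2.1, did not pass. Of 3 measured salicylic acid genes, AT5G03350 rose by 3.26, as described among the largest rises, and SAG101 and GRX480 did not pass. In the glucosinolate list, the glucosyltransferase genes UGT74B1 and AT2G31790 rose by 0.58 and 0.48, the call of AT2G31790 being lost in 4 of the 9 leave-one-out fits, and BCAT4, of the first steps of the pathway, had 0.31 (adjusted p = 0.123). EIN3 of ethylene signalling, BHLH101 and PYE of iron homeostasis, BGLU28 of sulfate nutrition and AT2G21640 of oxidative stress did not pass. None of the 3 reference genes passed, with differences of -0.04 for AT4G34270, 0.26 for AT2G28390 and -0.27 for PEX4.

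Few cell type markers were measured, 3 of 12 for roots and 2 of 13 for guard cells, trichomes and meristems. In each of these lists 1 was called higher, against 6.95% of all probe sets. TRY (AT5G53200) encodes a small MYB protein that represses trichome formation, and had 89.3, 107 and 111 in the line and 23.7, 13.9 and 24.2 in wild type, a difference of 1.70 (SE 0.14, adjusted p = 0.00068). FMA, a gene of guard cell formation, had -0.02 (adjusted p = 0.881). EXPA7, an expansin gene of root hairs, rose by 0.74 at a low level, with 27.6, 13.9 and 29.0 in the line and 8.50, 8.11 and 5.41 in wild type, and lost its call in 7 of the 9 fits with an array removed. The root hair gene EXPA18 and the root gene PYK10 did not pass, with 0.64 (adjusted p = 0.146) and 0.23 (adjusted p = 0.344).

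The brightest changed genes differed by smaller amounts. AT1G13930, for which no role is given here, was an exception, with 7163, 7121 and 7459 in the line and 18575, 18957 and 19131 in wild type, a difference of -1.38 (SE 0.05, adjusted p = 6.2e-05). CCL (AT3G26740), a gene whose transcript follows light and the clock, had 3287, 4237 and 4879 in the line and 14039.8, 15538 and 11841 in wild type, a difference of -1.75 (SE 0.20, adjusted p = 0.00217). AT1G54410, a dehydrin gene, fell by 0.57. The remaining bright falls were small, with differences of -0.25 for AT2G26500, a subunit gene of the cytochrome b6f complex, and -0.22 for the chloroplast gene psbK, and both calls were lost in several of the 9 leave-one-out fits, 7 and 4 of them. Among bright rises, AT1G51400, a small photosystem II protein gene, rose by 0.50, with 17832, 19307 and 18362 in the line and 13088, 12802 and 13277 in wild type. ECS1 rose by 0.47, a call lost in 7 of those fits.

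The OsSAP11 line allows a further question, namely which of these changes also set the OsRLCK253 line apart from another transgenic line. Between the lines 1185 probe sets (5.21%) differed, 425 (1.87%) higher and 760 (3.34%) lower in the OsRLCK253 line. The count was 564, 485 and 449 without OsSAP11 replicate 1, 2 and 3 in turn. Of the 612 rises named by the rule above, 88 were also higher than in the OsSAP11 line and 12 were lower, and of the 732 falls 181 were also lower and 3 were higher. Both comparisons use the OsRLCK253 arrays, so these shares are a description. Among the 50 largest differences, 16 rises and 13 falls were called against the OsSAP11 line in the same direction, and none in the opposite one.

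TRY stood out among the rises of this kind. Its signals were 89.3, 107 and 111 in the OsRLCK253 line, 25.0, 19.6 and 18.3 in the OsSAP11 line and 23.7, 13.9 and 24.2 in wild type, and its difference from the OsSAP11 line was 1.68 (SE 0.14, adjusted p = 0.00411). AT2G27420, the papain-type protease gene, had 54.8, 50.1 and 43.9 in the OsRLCK253 line, 11.4, 11.0 and 9.17 in the OsSAP11 line and 9.10, 9.55 and 7.40 in wild type. LHCB4.3 had 1586, 1508 and 1034 in the OsRLCK253 line, 665, 457 and 591 in the OsSAP11 line and 535, 403 and 502 in wild type. In these 3 genes the OsSAP11 arrays lay near or within the range of wild type. HYH took a middle position, with 124, 123 and 152 in the OsRLCK253 line, 75.1, 53.0 and 61.2 in the OsSAP11 line and 31.3, 33.5 and 33.6 in wild type, a difference between the lines of 0.92 (SE 0.11, adjusted p = 0.0109). AT5G42760, a leucine carboxyl methyltransferase family gene, had 106, 124 and 107 in the OsRLCK253 line, 41.2, 20.8 and 28.8 in the OsSAP11 line and 14.9, 15.8 and 13.8 in wild type. AT3G15310, annotated as a pseudogene, had 102, 137 and 65.1 in the OsRLCK253 line, 48.0, 19.1 and 23.2 in the OsSAP11 line and 4.35, 5.18 and 5.31 in wild type. Every wild type array lay under 16 in AT2G27420, AT5G42760 and AT3G15310, so the sizes of their rises depend on the 16 added. UGT78D1, PPDK, AT1G19450 and AT1G06000 differed between the lines by 0.59, 0.74, 0.68 and 0.83.

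Of the 6 fallen cold genes, COR27, AT4G33980 and COR15B were also lower than in the OsSAP11 line, and COR27 and AT4G33980 also stand in the clock list. COR47, LTI30 and COR15A did not pass against the OsSAP11 line, with differences of 0.01 (adjusted p = 0.965), 0.34 (adjusted p = 0.355) and -0.49 (adjusted p = 0.371). COR27 had 123, 140.0 and 179 and AT1G07050 84.7, 120.1 and 114 in the OsSAP11 line, between the other groups, and their differences of the OsRLCK253 line from the OsSAP11 line were -2.39 (adjusted p = 0.00321) and -2.08 (adjusted p = 0.00375). AT1G56300 had 89.6, 91.9 and 77.5 in the OsRLCK253 line, 291, 368 and 426 in the OsSAP11 line and 979, 950.2 and 918 in wild type. GI differed between the lines by -1.02, DPE1 by -1.01, PWD by -0.94 and CCL by -1.20, with adjusted p values of 0.0168, 0.00913, 0.0151 and 0.0225. AT1G13930 had 13653, 15652 and 15532 in the OsSAP11 line, nearer to wild type than to the OsRLCK253 line, and a difference between the lines of -1.04 (SE 0.05, adjusted p = 0.00219). The fallen genes of the rapid stress and touch list lacked such a difference in this test. STZ had 320.1, 14.9 and 110.5 in the OsRLCK253 line and 14.4, 12.8 and 50.8 in the OsSAP11 line (difference 1.5, adjusted p = 0.28), CML38 differed by 1.03 (adjusted p = 0.13) and WRKY53 by 0.20 (adjusted p = 0.632), which does not show that the lines were alike in these genes.

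**Figure D5:**
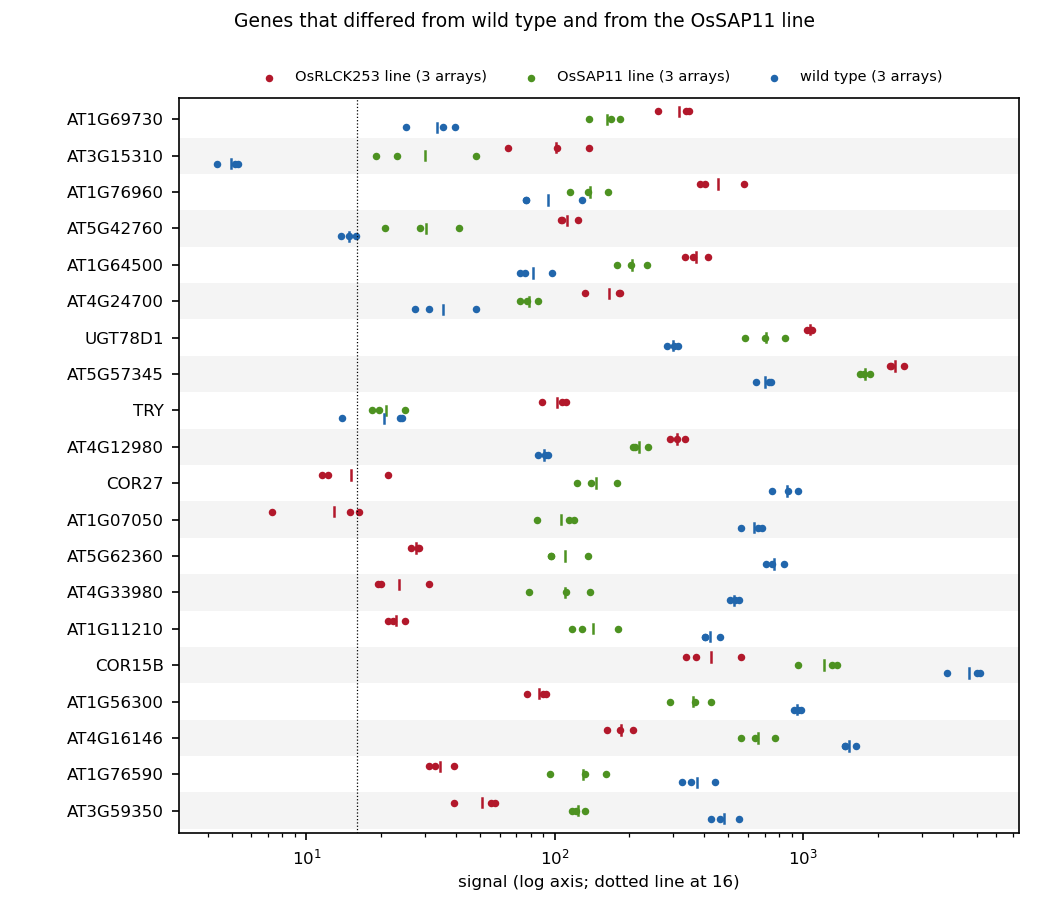
Signals on a log axis of the 10 largest rises (upper rows) and 10 largest falls (lower rows) called both against wild type and against the OsSAP11 line, with 3 points per group, a bar at the mean and a dotted line at 16. The OsSAP11 line (green) lies between the OsRLCK253 line (red) and wild type (blue) in most genes, and TRY is one where it lies on wild type.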

How the data were processed

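Per the labels' protocols, Trizol RNA of 21-day-old seedlings was turned into biotinylated cRNA, and 9 arrays were used, 3 per group. The deposited values are intensities, 1 linear signal per probe set and array, and the submitters' processing notes name GCOS. How signals were summarised, background-corrected and scaled is not given in the sources used here. Since the medians of the arrays were within 0.0777 of each other as log2 values (scaling was reserved for gaps over 0.1), the deposited values were used unscaled.

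Of 22810 probe sets, 64 controls were left out. Gene names came from the platform annotation, and 13436 of the 13513 probe sets with 1 gene matched the RefSeq table of assembly TAIR10.1. Only 1580 of them carry a symbol, and the roles given for locus codes are general knowledge.

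Signals were analysed as log2(signal + 16) with limma 3.58.1 in R 4.3.3, with 1 mean per group over all 9 arrays and empirical Bayes moderation (6 residual and 0.773 prior degrees of freedom). Tests were two-sided, with Benjamini-Hochberg adjustment over 22746 probe sets and a threshold of 0.05. The fit was also run on simulated arrays with independent noise and few changed probe sets. That setting differs from these data, where 13.8% of probe sets were called, so no conclusion is drawn from it. The number of arrays limits the precision.

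Ranked genes came from probe sets with 1 gene that were called, had non-overlapping groups and, in the group where they were higher, a mean above 44.6, the median signal. Named were the 50 largest rises and falls, the 10 largest each way also called against the OsSAP11 line and the 5 brightest each way. Up to 8 measured members per list (called ones first) were also named, whether or not they met these conditions. The list section also gives values of a few further members of the same lists. A list gene with several probe sets was represented by the brightest, and the groupings of genes by function were made after their values were seen. The comparison, the members and the lists were chosen with earlier results of these data known.

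The main fit did not pair arrays by replicate number. Correlations of deviations between line and wild type arrays of the same number were 0.0265, -0.127 and -0.114. Arrays of unlike numbers were not compared in this way, so these values do not settle whether the numbers pair the arrays. The alternatives tried were pseudocounts of 1 and 32, quantile normalization, centring on array medians, a mean signal of at least 32, a fit of the compared groups alone, a trend with robust prior, array weights, replicate number as a block, and each array left out. Promoter motifs were not analysed here.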

Additional observations from a re-analysis of the deposited data

Results flagged for a closer look

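Control probe sets outside the gene comparisons differed between the groups. The log2 ratio of the 3' to the 5' probe set of a control transcript was higher on all 3 arrays of the OsRLCK253 line than on all 3 wild type arrays for 3 of 6 pairs. The difference, line minus wild type, was 0.223 for the first actin pair, 0.164 for the second GAPDH pair and 0.13 for the second ubiquitin pair. The other 3 pairs differed by 0.158 for ubiquitin, 0.068 for actin and -0.128 for GAPDH, with overlapping groups or the opposite direction. The part of these ratios in the gene results was not tested.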

How the results depend on the processing

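Of 212 genes named or listed, 148 were called, and none of these changed direction under any alternative run. Most of the 148 were chosen for groups that do not overlap. For such genes, leaving out an array or changing the pseudocount could not reverse the direction, so this says little about stability. Between 0 and 25 of the 148 lost their call in a run, the most without wild type replicate 1 and next, 22, in the fit of the compared groups alone. Calls between the line and wild type stayed within 1.5 times the main count except with array weights, which gave 5694 calls with 3487 higher (61.2% of calls, against 50.4%), and without wild type replicate 1. Leaving out 1 array gave 2040 to 3387 calls, with 983 to 1915 higher. Calls between the lines numbered 1910 with a mean signal of at least 32, 609 with the compared groups alone, 1809 with a trend and robust prior, 5201 with array weights and 449 to 1388 with 1 array left out. With the replicate block there were 2556 calls against wild type and 639 between the lines, and 12 of the 148 genes lost their call.

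List medians moved with the scale. With a pseudocount of 1 they were -3.13 for the clock, -1.79 for rapid stress, -0.29 for heat shock, 1.86 for flavonoid, 2.25 for light, -0.065 for auxin and 0.045 for kinase genes. With 32 they were -2.46 for the clock, 1.72 for flavonoid, 1.76 for light and 0.62 for sugar transport genes. With a mean signal of at least 32, which removes dim members, they were -2.61 for cold, -3.21 for rapid stress, -0.83 for heat shock, 2.25 for flavonoid, -0.52 for auxin, -0.020 for kinase, 0.65 for cell wall and 0.73 for sugar transport genes. Array weights gave -1.95 for cold, 0.32 for photosynthesis, -0.45 for the SAP family and 0.69 for sugar transport, and quantile normalization 0.67 for sugar transport. With 1 array left out, medians were -1.91 to -1.74 for cold, -0.34 to -0.13 for heat shock, 0.26 to 0.34 for photosynthesis and 0.52 to 0.71 for sugar transport genes. The cause of these movements was not tested, other than the members removed by the filter. With 3 arrays a group, small differences and probe sets near a signal of 16 are the least certain.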
